A study of Mus musculus with 6 samples.

Results

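The SoxB1 genes Sox1, Sox2 and Sox3 and the Zic genes Zic1, Zic2 and Zic5 encode transcription factors of early neural progenitors. Their transcripts were followed through every probe set that the array's annotation names for one of these 6 genes alone, which gave 11 of the 45101 probe sets. All 11 were among the 27022 tested. The 6 arrays measured day 6 embryoid bodies, floating aggregates of mouse embryonic stem cells that turn into mixtures of early tissues. The cells were of the Hoxb4i line, in which an integrated tet-on cassette lets doxycycline switch on HOXB4, a homeodomain factor of blood progenitors, and both groups carried the cassette. One group of 3 received doxycycline at 2 µg/ml for 48 h from day 4 and the other group of 3 was left uninduced, and experiments A, B and C each gave 1 array to either group. The study compared induced with uninduced embryoid bodies; here the neural factors were compared with doxycycline inside each experiment, and also between the experiments. The labels give no difference between A, B and C beyond the letter, the line is a single engineered line, and doxycycline-treated cells without the cassette were not analysed here.

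SoxB1 proteins bind DNA through an HMG box and hold neural cells in a dividing progenitor state. Sox2 is also a core factor of pluripotent stem cells, where it acts with Oct4, and it stays on as they turn into neuroectoderm, while Sox1 comes on with the neural fate itself. Zic proteins bind DNA through zinc fingers, and in the mouse embryo they mark the early neural plate, later mainly its dorsal side, the neural crest and the somites.

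The values are array signals on a linear scale, scaled by the authors to a common mean. Log2 differences refer to log2(signal + 18.8), which shrinks the differences of dim probe sets, and a difference was called when limma's adjusted p was below 0.05. Between experiments, the intervals and p-values take their spread from the 2 arrays inside each experiment, after a doxycycline term. They do not measure how far a repeat of the same experiment would vary. Signals of different probe sets cannot be set against each other, since each has its own affinity. The deposited table holds no detection calls, so a low signal is given as a number and not as absence. In bulk samples of mixed tissue, fewer cells that express a gene and less RNA per cell cannot be told apart. The median signal of an array was 92.0 to 108.6. The uninduced array of A stood apart in its control probes. Its Actb 3' to 5' ratio was 2.88 and its Gapdh ratio 1.08, where the other 5 arrays had Actb ratios of 1.26 to 1.48 and Gapdh ratios of 0.834 to 0.903. The SoxB1 and Zic differences that involve A are therefore also given without it. A fit without an array of A takes its spread from B and C alone and assumes that the lone array of A varies like these: the median residual SD was 0.151 without either array of A and 0.259 with all 6 arrays. Calls that appear only without an array of A rest on that assumption. Hoxb4 itself had 116.4, 129.5 and 175.5 in doxycycline-treated A, B and C on probe set 1451761_at, against 46.5, 119.8 and 113.5 in uninduced A, B and C. On 1460379_at it had 136.3, 261.4 and 150.7 with doxycycline, against 78.2, 253.0 and 27.6 in uninduced A, B and C. Neither difference was called (log2 0.57 and 0.86, limma's unadjusted p = 0.198 and 0.211). These p-values come from the fit that does not pair the arrays by experiment. On both probe sets the doxycycline-treated array read higher in each of A, B and C.

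The RefSeq promoter table (GRCm38.p6), which holds 250 bases before and 50 after a gene's start, matched 4 of the 6 genes: Sox1, Sox2, Zic1 and Zic5. These windows are shown for their letters alone, and a link between the letters and the differences between experiments was not tested. Capitals mark exact matches, on either strand, to 4 motifs searched by letters: the octamer ATGCAAAT, to which POU factors such as Oct4 bind; the SOX core ACAAAG; the CCAAT box CCAAT; and the GC box GGGCGG. None of these motifs contains another.
Sox1 promoter, chr8:12395269-12395568, plus strand: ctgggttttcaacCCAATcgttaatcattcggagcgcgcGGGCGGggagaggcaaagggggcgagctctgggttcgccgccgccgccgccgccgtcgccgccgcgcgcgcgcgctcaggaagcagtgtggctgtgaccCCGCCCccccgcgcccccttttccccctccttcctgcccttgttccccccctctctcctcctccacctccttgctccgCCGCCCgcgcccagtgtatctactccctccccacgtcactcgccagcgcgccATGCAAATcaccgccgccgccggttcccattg
Sox2 promoter, chr3:34649745-34650044, plus strand: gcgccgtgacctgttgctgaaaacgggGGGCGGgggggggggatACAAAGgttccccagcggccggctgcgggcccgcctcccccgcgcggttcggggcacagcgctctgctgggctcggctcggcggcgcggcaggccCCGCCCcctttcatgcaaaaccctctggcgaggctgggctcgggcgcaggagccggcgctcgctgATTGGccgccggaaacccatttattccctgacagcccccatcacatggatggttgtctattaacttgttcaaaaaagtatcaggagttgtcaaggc
Zic1 promoter, chr9:91365719-91366018, minus strand: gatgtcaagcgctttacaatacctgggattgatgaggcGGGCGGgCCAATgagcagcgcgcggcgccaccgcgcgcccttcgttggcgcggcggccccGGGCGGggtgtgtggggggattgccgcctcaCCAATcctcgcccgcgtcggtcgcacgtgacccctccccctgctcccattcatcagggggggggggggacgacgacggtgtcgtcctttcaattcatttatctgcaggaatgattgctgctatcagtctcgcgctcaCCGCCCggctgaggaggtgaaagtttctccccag
Zic5 promoter, chr14:122465609-122465908, minus strand: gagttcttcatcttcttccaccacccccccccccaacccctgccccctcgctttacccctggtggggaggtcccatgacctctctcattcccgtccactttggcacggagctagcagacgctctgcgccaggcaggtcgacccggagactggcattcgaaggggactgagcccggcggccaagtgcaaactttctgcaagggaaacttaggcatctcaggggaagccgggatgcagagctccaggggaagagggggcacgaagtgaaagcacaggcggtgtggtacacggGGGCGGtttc
The octamer was found in the Sox1 window, on the plus strand, beginning at position 18 when the start base is counted as 0. Of all 32851 promoters of this length, 1.74% held an octamer. The SOX core was found in the Sox2 window at position -206, and 18.7% of all promoters held one. The Sox1 and Sox2 windows held 1 CCAAT box each and the Zic1 window 2, against a share of 37.4% of all promoters with at least 1. A GC box was found in all 4 windows, and in 35.7% of all promoters. The windows were rich in CG dinucleotides, with 37 in Sox1, 27 in Sox2, 31 in Zic1 and 15 in Zic5, against a median of 7 over all promoters. A match of letters does not show that a factor binds there.

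The SoxB1 genes were highest in experiment C and lowest in experiment B. For Sox2, probe set 1416967_at read 6064.6 in doxycycline-treated and 6163.4 in uninduced C, 2687.5 and 4389.5 in A, and 321.5 and 429.3 in B, again with the doxycycline-treated array first. The 3 experiments did not overlap in Sox2; the arrays lay close together in C and in B and further apart in A. Sox2 was higher in C than in B by a log2 difference of 3.97 (95% interval 3.49 to 4.46), a 15.7-fold change on the offset scale (limma's adjusted p = 7.78e-05). It was also higher in A than in B, by 3.14 (2.66 to 3.63; limma's adjusted p = 0.00187). Between C and A the difference was 0.83 (0.34 to 1.31) and was not called (limma's adjusted p = 0.0551). It was 1.08 without uninduced A and 0.58 without doxycycline-treated A, and called in both of those fits. The A over B difference was 2.90 without uninduced A and stayed a call.

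Sox1, which marks committed neuroectoderm, has 2 probe sets that behaved differently. On 1438729_at it read 966.9 in doxycycline-treated and 1015.5 in uninduced C, 385.9 and 350.7 in A, and 8.6 and 45.3 in B. The experiments again separated without overlap, in the order C, A, B. Sox1 on this probe set was higher in C than in B by 4.59 on the log2 scale (3.72 to 5.46; limma's adjusted p = 0.000361) and higher in A than in B by 3.21 (2.33 to 4.08; limma's adjusted p = 0.00822). The C over A difference of 1.38 was not called (limma's adjusted p = 0.0648), and it was called without the doxycycline-treated array of A, at 1.77, or without either array of B. Without uninduced A it was 1.00 and not called, and the A over B difference was 3.60 and called. The dimmer probe set, 1422205_at, read 236.4 and 78.6 in C, 68.2 and 3.6 in A, and 4.4 and 52.7 in B, with the doxycycline-treated array first in each pair. A and B overlapped on this probe set, and only its C arrays stood above the rest. Its C over B difference of 1.95 was not called (0.03 to 3.88; limma's adjusted p = 0.200), and it moved widely when an array of B was dropped, to 0.30, not called, without doxycycline-treated B and to 3.60, called, without uninduced B. Without either array of A it was 1.95 and called. Without uninduced A, its C over A and A over B differences were 0.80 and 1.15, neither of them called. Its mean over the arrays, 74.0, lay closest of the 11 to the limit of 60.5 below which probe sets were not tested.

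Sox3, the third SoxB1 gene, is X-linked and takes part in the neural plate and later in the pituitary and hypothalamus. On 1435192_at it read 2036.4 in doxycycline-treated and 1311.4 in uninduced C, 684.3 and 1033.7 in A, and 114.6 and 122.5 in B. The order C, A, B held with no overlap, but the gap between C and A was narrow next to the spread inside each. The C over B difference was 3.59 (2.87 to 4.31; limma's adjusted p = 0.000439) and the A over B difference 2.65 (1.93 to 3.36; limma's adjusted p = 0.00817). C over A gave 0.94 (limma's adjusted p = 0.101) and became a call, at 1.37, without the uninduced array of A, where A over B was 2.22 and called. On the dimmer 1450485_at Sox3 read 275.6 and 209.6 in C, 44.2 and 96.9 in A, and 7.3 and 77.3 in B, doxycycline-treated first. A and B overlapped there, and without uninduced A neither C over A (1.66) nor A over B (0.71) was called. Its C over B difference of 2.37 was called (limma's adjusted p = 0.0353) but was lost without the doxycycline-treated array of B (1.56) or of C (1.50), at an offset of 1, without the filter on low values and without the intensity trend.

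**Figure D1:**
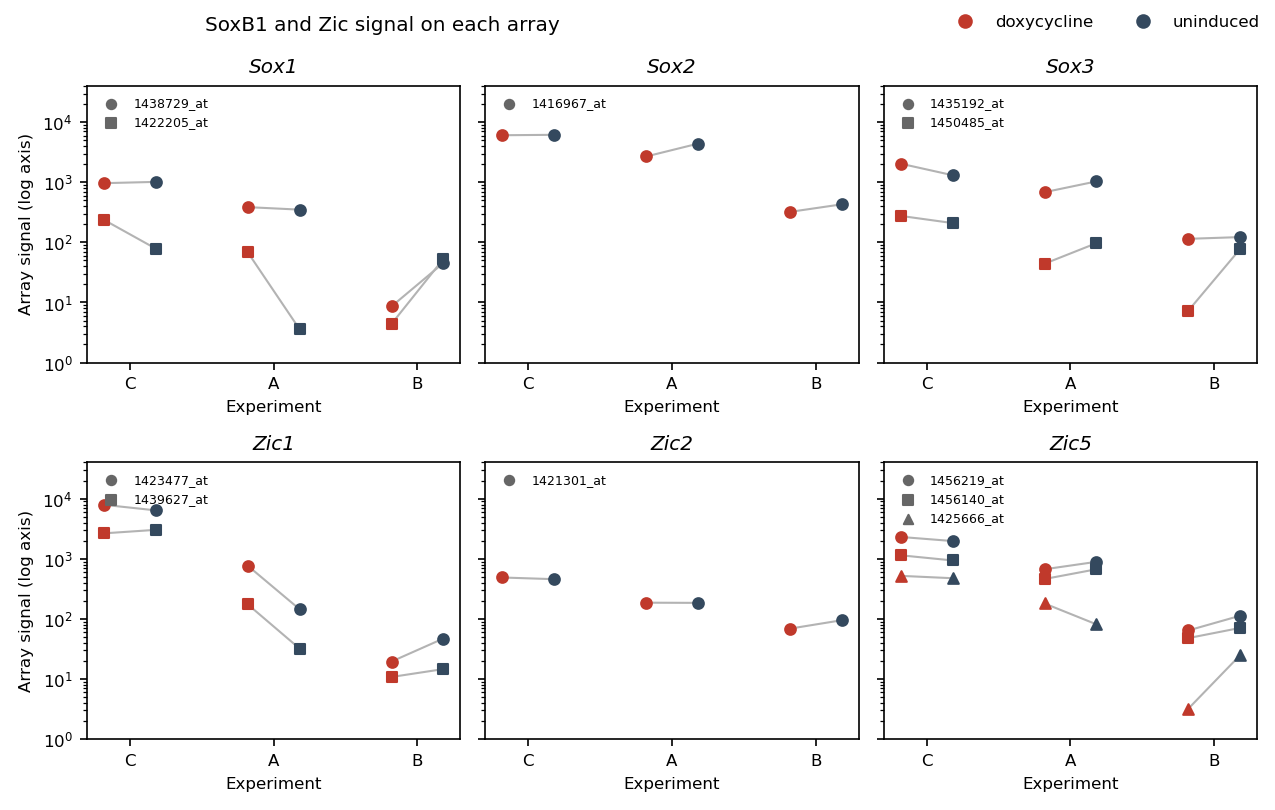
Array signal (log axis) of the 11 SoxB1 and Zic probe sets in experiments A, B and C. Red points are doxycycline-treated and dark points uninduced embryoid bodies, lines join the 2 arrays of an experiment, and marker shapes are probe sets. Every probe set is highest in C, and Zic1 reaches 7906.5 and 6391.0 in C but 19.5 and 47.0 in B (doxycycline-treated first).

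Zic1, a factor of the dorsal neural tube and somites, showed the widest range. Probe set 1423477_at read 7906.5 in doxycycline-treated and 6391.0 in uninduced C, 765.6 and 145.0 in A, and 19.5 and 47.0 in B. The second, 1439627_at, read 2651.4 and 3030.7 in C, 174.3 and 32.1 in A, and 10.8 and 14.6 in B, doxycycline-treated first. Both put the experiments in the order C, A, B without overlap. Zic1 was higher in C than in B by 7.15 (5.78 to 8.52; limma's adjusted p = 0.000372) and 6.50 (5.30 to 7.71; limma's adjusted p = 0.000332). Ordered by this C over B difference, they ranked 1 and 2 among all 27022 probe sets. Their signals in B were of the same order as the offset of 18.8, so the size depends on it: at an offset of 1 the differences were 7.82 and 7.71, and at 64 they were 6.22 and 5.24, all called. The direction held in each of these settings, and the size of a difference from so low a signal is not settled. Zic1 was also higher in C than in A, by 4.31 (limma's adjusted p = 0.0109) and 4.85 (limma's adjusted p = 0.00445); without uninduced A these were 3.07 and 3.79, both called. Without the intensity trend neither C over A difference was called.
Inside A, the 2 arrays of Zic1 lay far apart, so the A over B difference was less certain. It was 2.84 and called on 1423477_at (1.47 to 4.20; limma's adjusted p = 0.0429), and 1.66 and not called on 1439627_at (limma's adjusted p = 0.113). The first call was lost without the doxycycline-treated array of B (1.80), without the filter, with quantile normalization, at an offset of 1 and without the intensity trend. Leaving out uninduced A gave 4.08 and 2.71, both called; leaving out doxycycline-treated A gave 1.59, called, and 0.60, not called.

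Zic2, which is needed for the forebrain midline, had the smallest range of the representative probe sets. On 1421301_at it read 488.2 in doxycycline-treated and 457.7 in uninduced C, 186.0 and 184.7 in A, and 68.8 and 94.9 in B. The experiments did not overlap, and the arrays inside each were close together. Zic2 was higher in C than in B by 2.30 (1.60 to 3.00; limma's adjusted p = 0.00297). It was higher in C than in A by 1.27 (limma's adjusted p = 0.0481), a call that was lost without any one array of B or C, at 1.13 to 1.40, at an offset of 1, without the filter and without the intensity trend. A over B was 1.03 (0.34 to 1.73) and not called (limma's adjusted p = 0.0975), and it was called without either array of A, at 1.11 and 0.96. C over A was 1.19 and called without uninduced A.

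Zic5 lies next to Zic2 on its chromosome in the RefSeq annotation, and in the mouse it is needed for neural tube closure and neural crest. Its probe set of highest mean, 1456219_at, read 2307.2 in doxycycline-treated and 1972.8 in uninduced C, 669.1 and 889.8 in A, and 64.2 and 112.7 in B. The other Zic5 probe sets ran from 474.8 to 1142.3 in C and from 3.2 to 70.7 in B. All 3 ordered the experiments C, A, B without overlap. Zic5 was higher in C than in B by 4.36 (limma's adjusted p = 0.000146), 3.77 and 4.06 on 1456219_at, 1456140_at and 1425666_at, and all were called. A over B was called on 1456219_at (2.92; limma's adjusted p = 0.00369) and 1456140_at (2.89; limma's adjusted p = 0.00513), and was 2.19 on 1425666_at (limma's adjusted p = 0.0530). C over A was called on 1456219_at (1.44; limma's adjusted p = 0.0273). That call was lost without either array of C, at 1.82 and 1.07. Without uninduced A, the C over A differences of the 3 probe sets were 1.54, 1.10 and 1.16 (the first 2 called) and the A over B differences 2.83, 2.67 and 2.90 (all called).

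Across the 11 probe sets, 10 were called higher in C than in B and 0 lower. Over all 27022 tested probe sets, 4.33% were called higher and 5.26% lower in that comparison. In C over A, 4 were called higher and 0 lower, against 2.52% and 4.29% of all. In A over B, 6 were called higher and 0 lower, against 1.91% and 2.09%. The F test over the 3 experiments called 9 of 11, against 11.6% of all probe sets. Both arrays of C lay above all 4 arrays of A and B on 11 of 11 probe sets, against 18.6% of all, and both arrays of A lay above both of B on 9 of 11, against 32.3%. The median log2 differences were 3.97 for C over B, 1.44 for C over A and 2.65 for A over B, against 0.07, -0.01 and 0.08 over all tested probe sets. The probe sets of a gene share its transcript, and only 4 of the 11 had a mean in B at or above the limit of the filter on low values. That filter used the mean over all 6 arrays. The other 7 had a mean in C above the limit of 60.5, and all but Sox1 1422205_at had 1 in A above it too. On A and B alone, 3 of them would have fallen below the limit. These were Sox1 1422205_at (means 35.9 and 28.55 in A and B), Sox3 1450485_at (70.55 and 42.3) and Zic1 1439627_at (103.2 and 12.7). The counts are therefore descriptions. By gene, with the probe set of highest mean, C over B was called for 6 of 6, C over A for 3 (Zic1, Zic2 and Zic5) and A over B for 5, all but Zic2. The C over A count was the least settled: it became 2 when either array of C was dropped, 5 when either array of B was dropped, 7 without uninduced A, 9 without doxycycline-treated A, and 0 without the intensity trend. The A over B count became 3 without the trend and 9 without uninduced A.

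**Figure D2:**
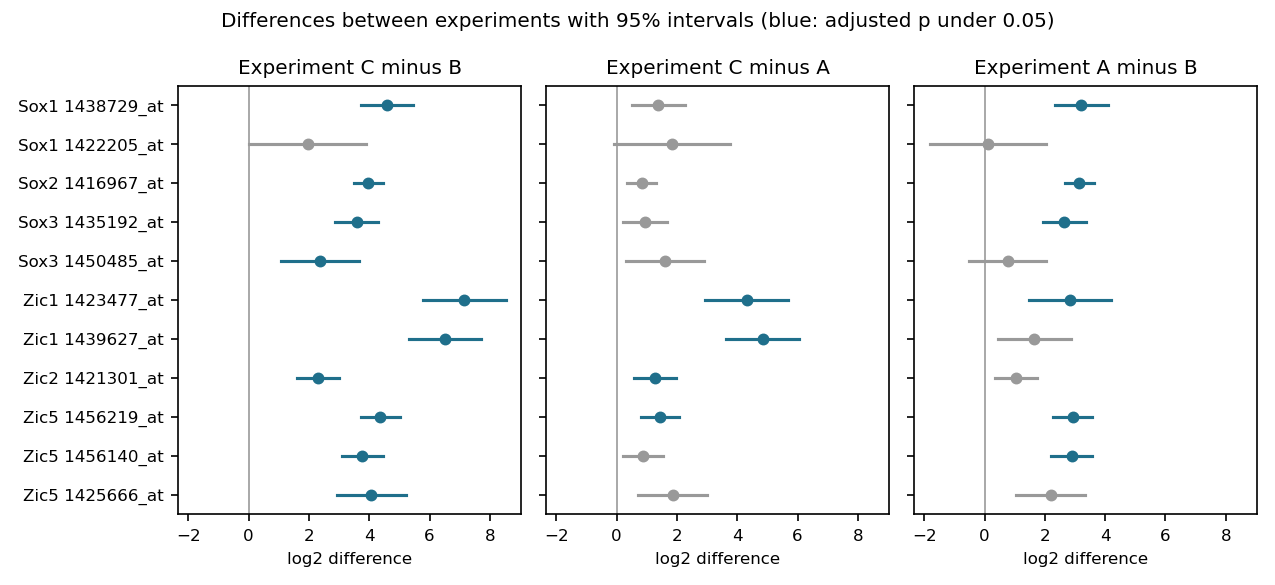
Log2 differences between experiments for each SoxB1 and Zic probe set, with points for the estimates, bars for the 95% intervals and blue for an adjusted p below 0.05. C over B runs from 1.95 to 7.15 and is called for 10 of 11, C over A is called for 4 and A over B for 6.

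The place of A between B and C varied among the probe sets. Where the mean log2 signal of B is set to 0% and that of C to 100%, A lay at 79.2% for Sox2. It lay at 69.8% and 5.95% for the bright and the dim Sox1 probe set, and at 73.7% and 32.4% for those of Sox3. It lay at 39.7% and 25.5% for Zic1, at 44.9% for Zic2, and at 66.9%, 76.8% and 53.9% for Zic5. The probe sets of Sox1 and of Sox3 disagree, so no place can be given to a gene as a whole, and differences in place were not tested. Whole profiles were compared by the root mean square difference between centred log2 values over the 6 arrays, which counts the size of the differences as well as their order. It was 0.27 between Sox1 and Zic5, 0.29 between Sox2 and Zic5 and 0.30 between Sox2 and Sox3, and 2.11 between Zic1 and Zic2, the genes with the widest and the narrowest range. From the mean profile of the 6 genes, Zic5 lay at 0.20 and Zic1 farthest, at 1.43.

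No SoxB1 or Zic probe set was called with doxycycline. Of all 27022, 0 were called higher (0%) and 0 lower (0%) by limma, and 138 had an unadjusted p below 0.05, of which 0 were among the 11. With the experiment letter as a replicate block, 0 were called as well, 1065 had an unadjusted p below 0.05, and 0 of the 11 were among these. Sox2 averaged 3025 ± 2886 with doxycycline and 3661 ± 2936 without (SD, n = 3 each), a log2 difference of -0.37 with an interval of -3.26 to 2.52, or -0.77 to 0.02 with the block (limma's unadjusted p = 0.0607, adjusted p = 0.930). Zic1 (1423477_at) averaged 2897 ± 4354 with doxycycline and 2194 ± 3635 without, a difference of 0.60 (-4.44 to 5.63; with the block -0.52 to 1.71). The SDs come from the gaps between experiments, and the intervals without the block allow changes of several log2 units either way. Over the 11 probe sets the median difference was -0.09, against 0.01 over all. The experiment held a median of 96.7% of the sum of squares of a SoxB1 or Zic probe set (53.3% to 98.6%) and doxycycline 0.85%, against medians of 65.7% and 6.69% over all tested probe sets.

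Inside the experiments, doxycycline went with differences of opposite sign. In B, the doxycycline-treated array was the lower one on 11 of 11 probe sets, by a median log2 difference of -0.66 (-1.88 to -0.08). Of all tested probe sets 48.9% were lower in B. Only 4 of the 11 had a mean in B at or above the filter limit of 60.5, and several share a transcript. The widest of these gaps came from low signals: Sox3 1450485_at read 7.3 and 77.3 in B, and Sox1 1422205_at 4.4 and 52.7, doxycycline-treated first. In A, 6 were higher and 5 lower (-0.88 to 2.26), and in C, 8 were higher and 3 lower (-0.19 to 1.39, median 0.22). Over all tested probe sets the medians were -0.04 (A), 0.01 (B) and 0.02 (C). None was higher with doxycycline in all 3 experiments (0 of 11, against 12.8% of all), and 1 of 11 was lower in all 3, against 13.2% of all. That probe set was the one for Sox2, where the gap was -0.70 for A, -0.40 for B and -0.02 for C.
Zic1 had the widest doxycycline gap, inside A. Its doxycycline-treated array was higher by 2.26 on 1423477_at and 1.92 on 1439627_at, and the dim Sox1 probe set 1422205_at was higher by 1.96; in each case the lower value came from the uninduced array with the high Actb ratio. The part of RNA quality in these gaps was not tested. In C, where Zic1 was brightest, its differences were 0.31 and -0.19. With 1 array per group in an experiment these values have no replicate check, and the difference between experiments was not tested.

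**Figure D3:**
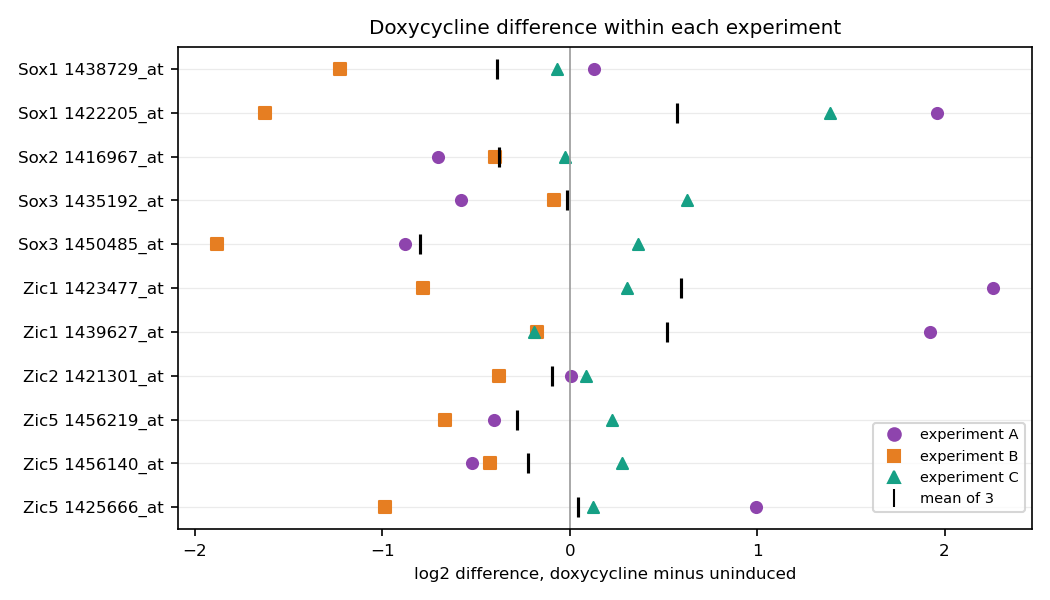
Log2 difference, doxycycline minus uninduced, within each experiment for the 11 probe sets; colours and shapes are experiments and the black bar is the mean of the 3. All 11 points of B lie below 0, and A runs from -0.88 to 2.26.

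Other genes of the neural programme were read from lists, each gene by its tested probe set of highest mean. Of the early neuroectoderm and neural progenitor list (35 genes, 28 tested), 18 were called higher in C than in B and 0 lower, with a median of 2.30. Over all 12452 tested genes, 5.78% were called higher and 6.94% lower, with a median of 0.07. Fabp7, a fatty acid binding protein of radial glia, differed by 5.83 (limma's adjusted p = 0.000287), and Hes5, a Notch target that holds progenitors undifferentiated, by 4.88. Nes, the progenitor intermediate filament nestin, differed by 2.75 (limma's adjusted p = 0.00109). In A over B, 10 of the 28 were called higher and 1 lower, against 2.37% and 2.76% of all tested genes. In C over A, 11 were called higher and 1 lower, against 2.77% and 4.64%. Pax6, a paired-box factor of the forebrain and eye, was higher in C than in B by 1.97 (limma's adjusted p = 0.0134) and in A than in B by 2.58 (limma's adjusted p = 0.0136), while its C over A difference was -0.60 and not called. Its C over B call was lost without uninduced B (1.56) or doxycycline-treated C (1.81), and its A over B call without uninduced B (2.16) or without the intensity trend. The A over B call of Pax6 was lost without uninduced B (2.16) and without the intensity trend. Pax6 read 283.1 and 463.4 in C, 305.5 and 1016.2 in A, and 67.5 and 90.6 in B, doxycycline-treated first.

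SoxB1 proteins act with POU factors, Oct4 in stem cells and class III POU factors in neural cells. Of the 4 class III POU genes, 2 were called higher in C than in B, Pou3f3 by 3.34 and Pou3f1 by 1.75, and 0 lower. The Pou3f1 call (limma's adjusted p = 0.0124) was lost without any one array of B or C. Pou5f1, which encodes Oct4, read 405.3 and 420.9 in C, 418.2 and 1015.4 in A, and 217.7 and 270.4 in B, doxycycline-treated first. Its C over B difference of 0.72 was not called (limma's adjusted p = 0.224), beside 3.97 for Sox2 in the same arrays. Nanog, a pluripotency homeodomain factor, was higher in C than in B by 1.67 (limma's adjusted p = 0.0209), and that call was lost without the doxycycline-treated array of B or either array of C. Of the pluripotency list (18 tested of 20), 4 were called higher and 1 lower in C over B, with a median of 0.42.

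Among the other Sox and Zic genes (13 tested of 18), 4 were called higher and 3 lower in C over B, with a median of 0.18. The higher ones included Sox21, a SoxB2 factor that counters SoxB1 in chick neural progenitors, by 3.28 (limma's adjusted p = 0.000361). Zic4, the neighbour of Zic1 in the RefSeq annotation, read 240.0 and 254.5 in C, 45.9 and 8.6 in A, and 9.3 and 9.0 in B, doxycycline-treated first. It was higher in C than in B by 3.25 (limma's adjusted p = 0.00863), a call that was lost without the uninduced array of C. Sox11, a SoxC factor of young neurons, differed by 0.95 (limma's adjusted p = 0.0120), and lost that call without either array of B or the doxycycline-treated array of C. The lower ones were the SoxF genes of endoderm and vessels: Sox17 by -2.01, Sox18 by -3.91 and Sox7 by -2.13; the Sox7 call was lost without the uninduced array of B.

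Signals that set up or pattern the neural plate were mixed. Of 20 tested, 5 were called higher and 4 lower in C over B, with a median of 0.08. Wnt1 and Wnt3a, ligands of the dorsal midline, were higher in C by 4.76 (limma's adjusted p = 0.000116) and 3.58 (limma's adjusted p = 0.00132), and Fgf8, a ligand of the midbrain-hindbrain border, by 3.14. Bmp2 and Bmp4, ligands that oppose neural fate, were lower in C than in B by log2 differences of -3.42 and -2.74 (limma's adjusted p = 0.000330 and 0.000202), as were the inhibitory Smads that they induce, Smad6 at -2.75 and Smad7 at -1.72. Bmp7, also on the list, differed by 0.68 and was not called (limma's adjusted p = 0.159). Of the Id genes, also targets of BMP, Id3 was called higher in C than in B by 1.19 (limma's adjusted p = 0.00195), and Id1 and Id2 differed by -0.09 and -0.39 and were not called. Of the proneural and early neuron list (13 tested of 19), 8 were called higher and 1 lower in C over B, with a median of 2.38. Stmn2 and Tubb3, cytoskeletal genes of neurons, were higher by 3.10 and 3.77.

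**Figure D4:**
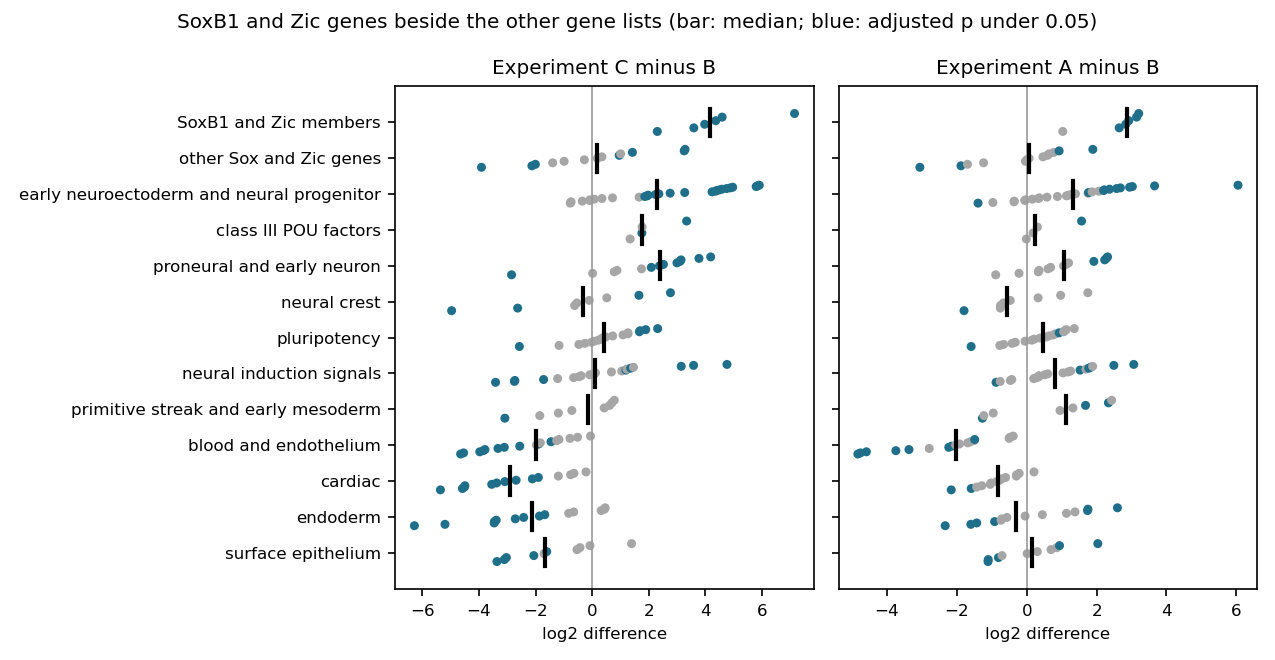
Log2 differences C minus B and A minus B for each tested gene of the SoxB1 and Zic group and of 12 other lists; blue points have an adjusted p below 0.05 and black bars are medians. The SoxB1 and Zic median is 4.17 in C minus B and 2.88 in A minus B, and the cardiac median is -2.89 in C minus B.

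The 10 genes whose centred profile over the 6 arrays lay nearest to the mean SoxB1 and Zic profile were Map2, Ptn, Sema3c, Wnt1, Prr36, Sp8, Klhl14, Gm2102, Nr2f1 and Crabp2. Their root mean square differences ran from 0.27 for Map2, a neuronal microtubule protein, to 0.38 for Crabp2, a retinoic acid binding protein. Ptn, a secreted growth factor, read 8371.0 and 11298.4 in C, 2431.8 and 1933.7 in A, and 354.4 and 586.1 in B, doxycycline-treated first. These genes were picked from 12452 for likeness, so their order of experiments is not a result.

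Markers of endoderm, of blood and endothelium and of heart summed lower in C than in B, while the 5 markers of pluripotent cells summed higher. The summed signal of 8 neuroectoderm markers was 14614 and 14295 in C, 5728 and 9299 in A, and 1334 and 1289 in B, doxycycline-treated first, and 6 of the 8 were called higher in C than in B. Lhx2 and Six3 differed by -0.09 and -0.35 in C over B and were not called. A sum follows its brightest probe sets, and sums of different markers cannot be set against each other. For 5 endoderm markers the sums were 423.3 and 346.3 in C, 6383 and 5839 in A, and 11532 and 12107 in B, and 3 of the 5 were called lower in C than in B. In A over B these markers were split. Afp (2.60) and Foxa2 (1.74) were called higher, and Ttr (-1.43) and Apoa1 (-2.33) lower. For 6 blood and endothelium markers they were 1203 and 1851 in C, 3893 and 881.5 in A, and 24959 and 31968 in B, and 5 of the 6 were called lower in C than in B. For 5 cardiac markers they were 492.8 and 568.5 in C, 881.7 and 1180 in A, and 1665 and 2838 in B, with 2 of the 5 called lower in C than in B. For 5 pluripotency markers they were 3474 and 3338 in C, 1501 and 1642 in A, and 914.3 and 1208 in B, with 3 of the 5 called higher and 0 lower. The longer pluripotency list, 18 genes tested, summed to 17686 and 18318 in C, 19734 and 23706 in A, and 14791 and 14022 in B. For 4 neural crest markers the sums were 1135 and 1429 in C, 2542 and 5988 in A, and 10386 and 12400 in B. The B sums were mostly Snai2, and 1 of the 4 was called higher and 1 lower in C than in B. No list summed to 0 on any array, but MAS5 gave every probe set a signal above 0. Over the longer lists, C over B was called lower and never higher for 10 of 14 cardiac genes, 9 of 14 endoderm genes, 10 of 17 blood and endothelium genes and 5 of 10 surface epithelium genes. Of 8 genes of the primitive streak and early mesoderm, 0 were called higher and 1 lower, with a median of -0.15. How far the share of neural cells, and not the level per cell, carried the SoxB1 and Zic differences was not tested.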

How the data were processed

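The deposited table gives each probe set 1 intensity on each Affymetrix Mouse Genome 430 2.0 array, made by the authors with MAS5 per the submitters' processing notes, whose version is not given in the sources used here. A total of 3 biological replicates is stated in the series' design text. The deposited values were linear, and their mean after trimming 2% at each end was 500.00 on every array, so they were used without further normalization. The number of arrays limits the precision.

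From the deposited intensities, log2(signal + 18.8) was computed, 18.8 being the 20th percentile of all values. Of 45037 probe sets that are not controls, those with a mean below the 40th percentile were left out, which left 27022. Names came from the platform annotation in GEO, with symbols updated through a RefSeq table of GRCm38.p6: 34945 probe sets were named for 1 gene (34741 with a current symbol), 932 for several and 9160 for none. A gene was represented by its tested probe set of highest mean.

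Tests used limma 3.58.1 in R 4.3.3 with an intensity trend, two-sided at 0.05, adjusted by Benjamini-Hochberg over the 27022 probe sets. The script recovered known changes in simulated data, whose arrays lacked the spread between experiments of the real ones. That run therefore does not give the power of the doxycycline test on these arrays. Doxycycline was compared over 3 arrays against 3 without a block, and experiments were compared over 2 arrays each, with a doxycycline term. The 2 arrays of an experiment share its letter in the labels, and their deviations from the group means correlated at 0.45, 0.67 and 0.66, so the letters were taken to pair the arrays. The doxycycline test without a block does not use this pairing, so its error includes the gaps between experiments. Alternatives were other offsets, no filter, quantile normalization, no trend, no doxycycline term, the block, and leaving out arrays or experiments.

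Named genes were all SoxB1 and Zic probe sets; in each list up to 6 genes with the smallest F test p and the 2 with the smallest doxycycline p, of which the text gives a part; partner genes whatever their values; and the 10 nearest profiles. The members, lists and rule were chosen with earlier results of these data known.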

Additional observations from a re-analysis of the deposited data

How the results depend on the processing

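With the replicate block, which was fitted for the doxycycline comparison alone, 0 probe sets were called, as without it. With the block and both arrays of A left out, a setting chosen after seeing the data, 275 were called, 0 of them SoxB1 or Zic probe sets. Over all tested probe sets, dropping the filter gave 1089 calls in C over A and 702 in A over B; dropping the intensity trend gave 1686 in C over B, 174 in C over A, 76 in A over B and 1186 in the F test. Leaving out 1 array gave 1018 to 8126 calls in C over B, 264 to 9709 in C over A, 139 to 9262 in A over B, 1502 to 13806 in the F test and 0 with doxycycline. Of the 11 SoxB1 and Zic probe sets it left 9 to 11, 2 to 9, 5 to 9, 8 to 11 and 0 called in the same comparisons. At an offset of 64, 7 were called in C over A; without the trend 0 were called there and 3 in A over B. Fits without an array of A, which gave the highest of these counts over all probe sets, had a median residual SD of 0.151 and prior degrees of freedom of 94.3 and 114, against 0.259 and 5.96 with all arrays. For the other settings the cause was not tested. Between experiments, the single-array settings turned the A over B difference of Sox1 1422205_at (-1.53 to 1.76) and Sox3 1450485_at (-0.043 to 1.58). In a doxycycline fit without the block, dropping 1 array leaves the groups unequal over A, B and C. The estimate then takes in part of the gaps between experiments, whatever doxycycline does. The single-array ranges therefore do not show how stable a doxycycline difference is. Doxycycline differences, none of them called, changed sign often, also in the single-array settings, which were fitted without the block. Over the single-array settings they ran from -0.26 to 1.47 and -1.48 to 1.12 for Sox1 (1422205_at, 1438729_at), -1.56 to 0.82 for Sox2, -1.03 to 1.04 for Sox3 1435192_at, -1.24 to 2.60 and -1.19 to 2.59 for Zic1 (1423477_at, 1439627_at), -0.73 to 0.53 for Zic2, and -0.96 to 1.34, -1.28 to 0.94 and -1.40 to 1.03 for Zic5 (1425666_at, 1456140_at, 1456219_at). Without experiment A, with or without the block, they were -0.12 for Sox1 1422205_at, -0.24 and -0.18 for Zic1, -0.43 for Zic5 1425666_at and 0.27 for Sox3 1435192_at. Without B they were 0.049 for Zic2, 0.023 for Sox3 1435192_at and 0.031 for Sox1 1438729_at. An offset of 1 gave -0.45 for Zic5 1425666_at. Of the remaining values of other named genes between experiments, 1523 kept direction and side of the threshold, 227 lost the call, 2 gained one and 0 reversed. Low signals in B, down to 3.2, limit how large any difference from B can be measured.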

Other observations

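Regional markers of the neural plate, picked after their values were seen, did not all follow the order C, A, B of the SoxB1 and Zic genes. Some did. En1 and Pax7 differed by 2.53 and 1.90 in C over A and by 2.22 and 2.68 in A over B, all called. The arrays of En2, given below, also kept that order. Otx2, a forebrain and midbrain homeodomain factor, read 2541.5 and 2963.6 in C, 2779.5 and 3861.0 in A, and 35.5 and 26.9 in B, doxycycline-treated first. Its log2 difference was 5.79 in C over B and 6.05 in A over B, and -0.25 in C over A (limma's adjusted p = 0.537). Lhx2 and Six3, factors of the anterior neural plate and eye field, had C over A differences of -2.15, called, and -2.22, not called (limma's adjusted p = 0.0374 and 0.0806). En2, a factor of the midbrain-hindbrain border, read 1360.1 and 2224.6 in C, 62.9 and 54.3 in A, and 17.8 and 4.8 in B, and differed by 4.51 in C over A (limma's adjusted p = 0.00211). Olig3, a dorsal progenitor factor, differed by 4.76 in C over A, close in size to Zic1.

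Neural crest genes were split. Snai2, a repressor of E-cadherin in neural crest and mesoderm, had 204.9 and 542.0 in C and 10110 and 12139 in B, and was lower in C by a log2 difference of -4.97. Tfap2b, an AP-2 factor of the neural crest, was higher in C than in B by 2.76 (limma's adjusted p = 0.00236). Of the 8 neural crest genes tested, 2 were called higher and 2 lower in C over B.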
